A study of Mus musculus with 24 samples.

Results

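MHC class II presentation genes are the 10 mouse genes for the classical presenting chains H2-Aa, H2-Ab1 and H2-Eb1, the peptide exchange factor chains H2-DMa, H2-DMb1 and H2-DMb2, its inhibitor chains H2-Oa and H2-Ob, the invariant chain Cd74 and the transactivator Ciita. They were chosen by name, through the RefSeq symbol of each probe's accession, and all 10 of the 10 members had a probe among the 22911 symbols on the array. A gene with several probes was read from its brightest one. RNA was measured on 24 Agilent arrays in 1 colour (Cy3), 6 for each of 4 tissues, which were liver, kidney, lung and white adipose tissue (WAT). The mice were C57BL/6J males, 3 at 10 weeks of age (10W, called young here) and 3 at 90 weeks (90W, called aged) in each tissue, and no treatment is labelled. The aged livers are numbered 1, 2 and 4, and the other groups 1, 2 and 3. The 6 arrays of a tissue share 1 slide that holds both ages and no other tissue, so that slide and tissue cannot be told apart.

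Class II molecules are pairs of an alpha and a beta chain that carry peptides from endocytosed proteins to the cell surface, where CD4+ T cells read them. The newly made pair is held by the invariant chain, which cathepsins trim in the endosome until DM exchanges its last fragment for a peptide, while DO restrains DM, chiefly in B cells. B cells, dendritic cells and many macrophages express the set under the control of Ciita, and interferon-gamma can induce it in other cells, such as epithelium.

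The promoters of class II genes share a compact module that is bound by RFX and NF-Y and through which Ciita acts, so their sequences are shown for the members whose promoter held both of the motifs searched. Of the 10 members, 7 had an entry, with 8 starts, in a table of RefSeq promoters on the build GRCm38.p6. The 250 bases before each start were searched on both strands for GCAAC, a core of the RFX site, and for ATTGG, the Y box core read by NF-Y, and for GCAAC followed by ATTGG on the same strand with 10 to 40 bases between them. The ordered pair was found on the strand of the gene in 4 members, at chr17:34092291-34092352 on the plus strand for H2-Oa, chr17:34238806-34238864 on the plus strand for H2-Ob, chr17:34287855-34287916 on the minus strand for H2-Aa and chr17:34305764-34305824 on the plus strand for H2-Eb1. Each stretch is written 5′ to 3′ along the gene with 12 bases on either side of the pair, and capitals mark GCAAC and ATTGG.
H2-Oa: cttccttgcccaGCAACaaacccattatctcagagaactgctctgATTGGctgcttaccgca
H2-Ob: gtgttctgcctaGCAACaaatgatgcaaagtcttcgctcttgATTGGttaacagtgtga
H2-Aa: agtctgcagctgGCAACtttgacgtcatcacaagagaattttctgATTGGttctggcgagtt
H2-Eb1: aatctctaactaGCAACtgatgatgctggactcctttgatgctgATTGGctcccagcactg

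The spacing between the motifs was 28 bases in H2-Oa and H2-Aa, 27 in H2-Eb1 and 25 in H2-Ob. Of 32851 promoters in the table, 208 (0.633%) held such a pair on the strand of the gene and 398 (1.21%) on either strand, while ATTGG was found on either strand in 33.8%, GCAAC in 29.9% and both in 10.6%. H2-DMb1 and H2-DMb2 held ATTGG without GCAAC, and the starts of H2-DMa held GCAAC at 1 and ATTGG at the other. The plot of motif positions shows ATTGG on the strand of the gene between 43 and 59 bases before the start in the 4 paired promoters, and H2-Eb1 held another on the other strand, 35 bases before it. A match describes the letters in the window and was not tested as a binding site. H2-Ab1, Cd74 and Ciita had no entry.

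**Figure D1:**
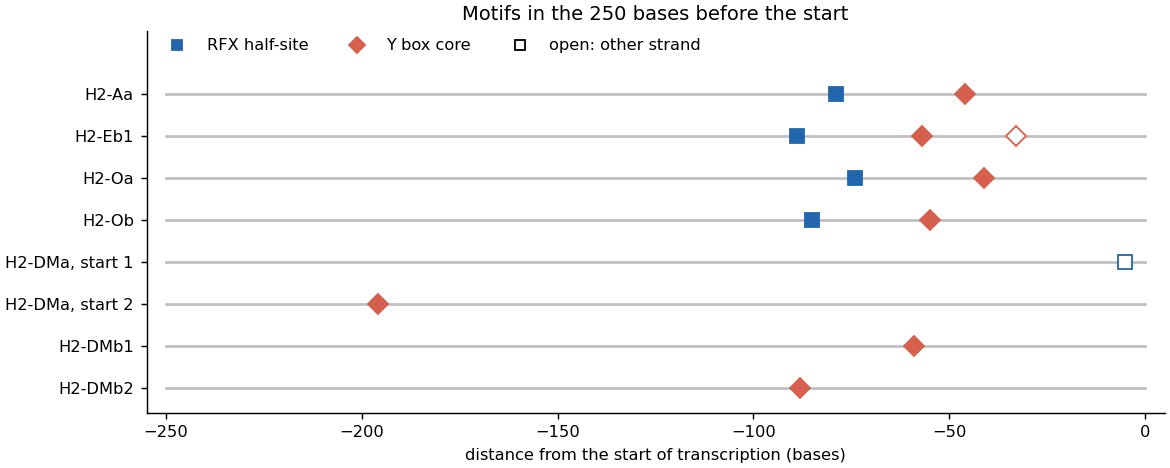
Positions of GCAAC and ATTGG in the 250 bases before the start of each member with an entry, by distance from the start in bases, with matches on the strand of the gene and on the other strand marked apart. H2-Oa, H2-Ob, H2-Aa and H2-Eb1 show GCAAC upstream of ATTGG with 25 to 28 bases between them.

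Some arrays differed from others of their group in genes outside class II. WAT 10W 1 correlated with the other young fat arrays at 0.942 and 0.951, while those correlated with each other at 0.989. A list of 8 epididymis genes, written after the values were seen, summed to 1295 times the 75th percentile on that array against 0.0755 and 1.69 on the other young fat arrays. Lung 90W 2 did not stand apart by correlation, at 0.979 and 0.984 with the other aged lungs, and is set out here because of its values for members and leukocyte genes, so that leaving it out is a choice made after they were seen. Its neutrophil list, read from 7 of 8 genes, summed to 1448 against 312 and 162 in the other aged lungs, with S100a9 brightest, and a list of 6 myeloid precursor genes, also written after the values were seen, summed to 61.3 against 2.32 and 2.90. The same lists were high in Liver 90W 2, at 1370 and 302, and in WAT 90W 3, at 886 and 147. Lung 90W 1 summed to 126 for 5 liver genes against 3.68 and 2.44 in the other aged lungs, with Alb at 6.68 against 1.08 and −1.45, and had the fewest probes well above background in its tissue, 59.5%. Fat genes were higher in the young lungs, at 119, 121 and 65.1, than in the aged, at 3.97, 2.74 and 23.4. The part of these transcripts in the results below was not tested.

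All member values are log2 signals relative to the array's 75th percentile, so that 0 is that percentile, and values of different genes come from different probes and are not set against each other. In the kidney, all 10 members were higher at 90 weeks by limma at an adjusted p under 0.05, and none was lower. Over all 31505 genes tested there, 20.6% were called higher and 42.6% lower, and all aged mice lay above all young mice in 23.1%, against 10 of 10 members. The median change of the members was 2.53, beside −0.23 over all genes. In the liver, 9 members could be tested, of which 6 were called higher and none lower, with 8 higher at an unadjusted p under 0.05. Of 27906 liver genes, 10.5% were called higher and 17% lower, and groups were apart with the aged above in 16.8%, against 7 of the 9 tested members. The members' median change was 1.66 in the liver, beside −0.20 over all genes.

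In the lung, limma called 0 of 10 members, 0 reached an unadjusted p under 0.05, and the methods' test, an unpaired comparison of means, called 0 with an adjustment over all genes that was added here. Of 30327 lung genes, 2.72% were called higher and 2.89% lower, and aged mice were all above young mice in 11.6%, against 0 members. The median change of the members in the lung was 0.21, beside −0.08 over all genes. In WAT, 1 member, H2-Oa, was called higher and none lower, and 2 reached an unadjusted p under 0.05, H2-Oa and H2-Ob. Of 30063 WAT genes, 2.01% were called higher and 0.579% lower, and aged mice were all above young mice in 13.7%, against those 2 members. The median change of the members in WAT was 0.28, beside −0.05 over all genes. In bulk tissue, more cells that express these genes and more RNA per cell cannot be told apart.

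**Figure D2:**
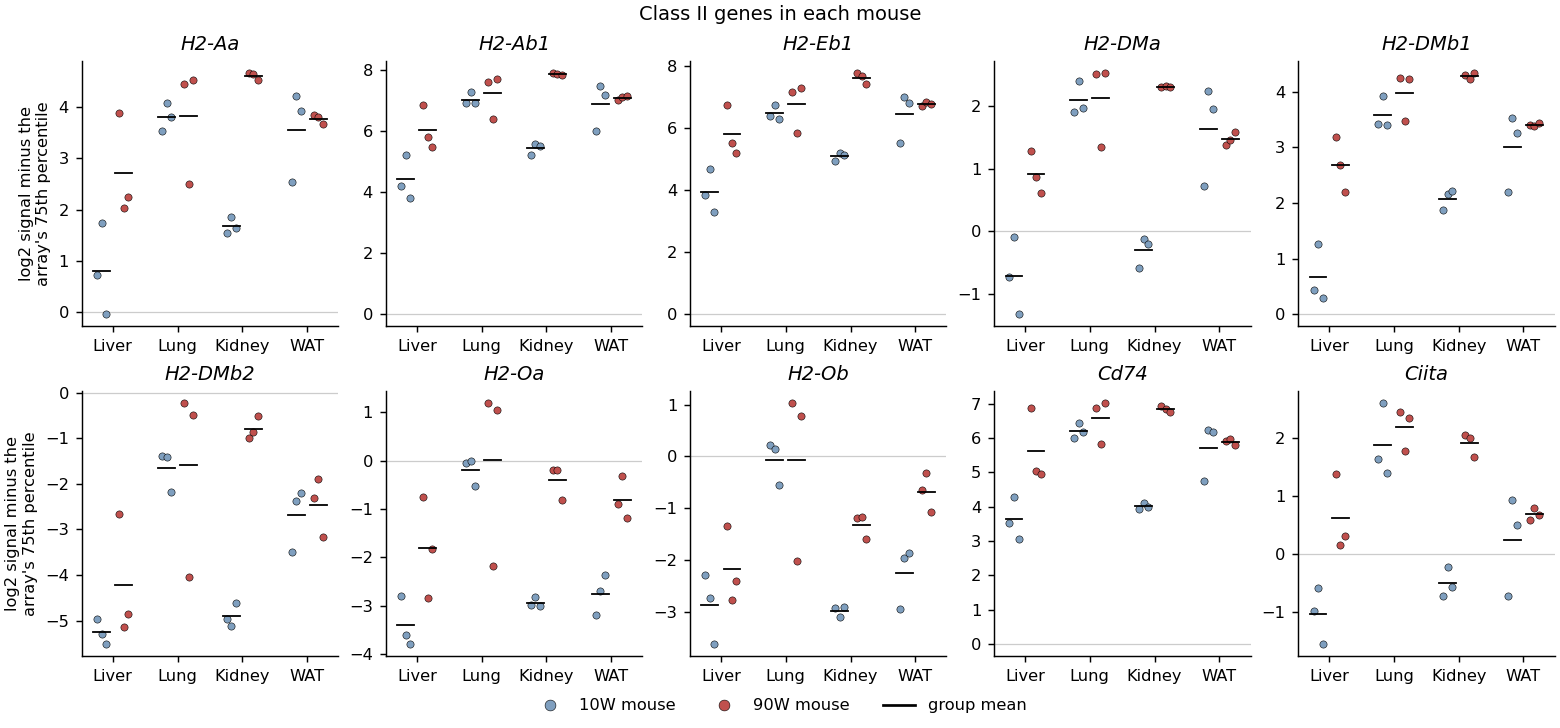
Level of each member in every mouse, as the log2 signal minus the array's 75th percentile, with a panel for each member whose vertical axis has its own range, points for single mice and bars for the group means. In the kidney the 3 aged mice lie above the 3 young mice for all 10 members, and in the lung the groups overlap for all 10.

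The alpha chain gene H2-Aa, which encodes the alpha chain of I-A, stood at 1.54, 1.86 and 1.64 in the young kidneys and at 4.66, 4.65 and 4.52 in the aged. Every aged kidney was above every young one by more than the spread within either age, and H2-Aa rose by 2.93 (SE 0.11, 7.61-fold, adjusted p = 2.82e-05). In the liver, H2-Aa was at 0.73, 1.74 and −0.04 in young mice and 3.88, 2.04 and 2.24 in aged mice. The aged livers were all above the young ones, with aged liver 1 far above the others, and the change of 1.91 (SE 0.60) missed the threshold at an adjusted p of 0.0537. It passed with normexp background correction, centring on the median, spike-in scaling and in the fit of all 24 arrays. Under the other alternatives, each single array left out among them, it still missed the threshold.

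H2-Ab1, the beta chain of I-A, was at 5.22, 5.59 and 5.51 in young kidneys and at 7.90, 7.86 and 7.84 in aged kidneys. The aged kidneys were nearly equal to each other and all above the young, and H2-Ab1 rose by 2.43 (SE 0.11, adjusted p = 4.87e-05). In the liver it was at 4.21, 5.22 and 3.82 in young mice and at 6.84, 5.80 and 5.47 in aged mice. The gap between the highest young and the lowest aged liver was small beside the spread within the ages, and the rise was 1.62 (SE 0.46, adjusted p = 0.0412). Its 4 probes gave changes of 2.43 to 2.75 in the kidney and of 1.47 to 1.73 in the liver. H2-Eb1, the beta chain of I-E, was at 4.94, 5.18 and 5.14 in young and 7.76, 7.65 and 7.42 in aged kidneys. It rose by 2.52 there (SE 0.12) and by 1.87 in the liver (SE 0.48, adjusted p = 0.0314), with the aged mice above the young in both tissues. The alpha chain of I-E is not among the members, so whether I-E was formed cannot be told from H2-Eb1 RNA.

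In the lung, the presenting chains were already bright in young mice and the ages overlapped. H2-Ab1 stood at 6.92, 7.27 and 6.90 in young lungs and at 7.62, 6.38 and 7.71 in aged lungs. Aged lungs 1 and 3 lay above every young lung and aged lung 2 lay below every one, an order that also held for H2-Aa, H2-Eb1 and Cd74. The changes of the 3 chains were between 0.01 and 0.29, and that of H2-Aa changed sign with median centring (−0.00096) and with spike-in scaling (−0.15). In WAT, H2-Ab1 was at 5.99, 7.46 and 7.18 in young mice and at 7.01, 7.12 and 7.15 in aged mice. The aged fat samples lay within a narrow range between the young ones, and young fat 1, the array with epididymis transcripts, was lowest. Without that array the WAT changes of H2-Aa, H2-Ab1 and H2-Eb1 were −0.30, −0.23 and −0.13, and with all arrays 0.21, 0.22 and 0.33, none of them past the threshold.

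The DM chains form the endosomal factor that exchanges peptides on class II. H2-DMa, its alpha chain, was at −0.59, −0.13 and −0.20 in young kidneys and at 2.31, 2.32 and 2.31 in aged kidneys. The 3 aged kidneys were almost the same, with an SD of 0.0059, and H2-DMa rose by 2.62 (SE 0.13, adjusted p = 6.27e-05). In the liver H2-DMa was at −0.73, −0.08 and −1.33 in young mice and at 1.29, 0.87 and 0.61 in aged mice. All aged livers were above all young ones, a rise of 1.64 (SE 0.34, adjusted p = 0.0171). H2-DMb1, a beta chain, had the lowest adjusted p of the members in the liver, 0.00960, with young values of 0.44, 1.27 and 0.30 and aged values of 3.18, 2.69 and 2.20. It rose 4.06-fold there and 4.62-fold in the kidney, where the aged values lay between 4.22 and 4.33.

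H2-DMb2, encoded beside H2-DMb1, was the member with the largest fitted change in the kidney. It was at −4.97, −5.12 and −4.61 in the young kidneys, near the bottom of the measurable range but above background on all 3 arrays, and at −0.99, −0.87 and −0.51 in the aged. No aged kidney came near a young one, and the rise was 4.11 (SE 0.18, 17.3-fold, adjusted p = 4.22e-05). In the liver it was not well above background in any of the 3 young mice and was above it in 2 of the 3 aged mice, so it was not tested there, and the ages overlapped. In the lung H2-DMb2 was at −1.39, −1.40 and −2.18 in young mice and at −0.22, −4.04 and −0.48 in aged mice. Aged lung 2 was by far the lowest of the 6, and the change was 0.07 (SE 1.03), or −0.088 with spike-in scaling, with H2-DMa at 0.04 and −0.12. In WAT, the DM changes were −0.16 for H2-DMa, 0.41 for H2-DMb1 and 0.23 for H2-DMb2, and the ages overlapped for each.

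DO, which restrains DM, was the one complex with a call in WAT. H2-Oa, its alpha chain, was at −3.20, −2.70 and −2.38 in young fat and at −0.91, −0.32 and −1.19 in aged fat. The 3 aged samples were all above the 3 young, and limma called a rise of 1.95 (SE 0.32, 3.87-fold, adjusted p = 0.0399). The call was lost with quantile normalization, spike-in scaling, no filter on dim probes, the replicate number as a block (adjusted p = 0.101), the methods' test (0.160) and when any 1 array was left out, while the change then stayed between 1.71 and 2.15. The adjusted p was 0.0672 without young fat 1, 0.119 without young fat 2, 0.0843 without young fat 3, 0.162 without aged fat 1, 0.0853 without aged fat 2 and 0.0937 without aged fat 3. The number of all WAT genes called higher fell as well, from 605 to 323 with the block and to 1 with the methods' test. With 1 array left out that number lay between 62 and 494. It was 559 with quantile normalization, 582 with spike-in scaling and 413 with no filter on dim probes. H2-Ob, the beta chain, was at −2.93, −1.95 and −1.86 in young fat and at −0.65, −0.32 and −1.08 in aged fat. Its groups were also apart, with a change of 1.57 (SE 0.36) that missed the threshold at an adjusted p of 0.0876.

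In the kidney both DO chains rose. H2-Oa was at −2.98, −2.83 and −3.01 in young mice and at −0.20, −0.19 and −0.83 in aged mice, a rise of 2.54 (SE 0.19). Aged kidney 3 was the lowest of the aged for both chains and still above every young kidney. H2-Ob rose by 1.65 (SE 0.14), the smallest fitted change of a member in that tissue. In the liver, H2-Oa was at −2.80, −3.60 and −3.80 in young mice and at −0.75, −2.84 and −1.83 in aged mice. Aged liver 2 fell just below young liver 1, so that the ages overlapped, and the change of 1.59 had an adjusted p of 0.0616, or 0.0220 without aged liver 2. H2-Ob overlapped in the liver as well, with a change of 0.70 and an adjusted p of 0.273.

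In the lung, H2-Oa was at −0.06, −0.01 and −0.53 in young mice and at 1.20, −2.18 and 1.04 in aged mice. Aged lungs 1 and 3 were above and aged lung 2 far below all young lungs, and the change was 0.22 (SE 0.91). Without aged lung 2 it was 1.32 (SE 0.19, adjusted p = 0.0296), the 1 lung call that any left-out array gave, while it was −0.37 without aged lung 1 and −0.29 without aged lung 3, neither of them called. The members' median lung change was 0.71 without aged lung 2, −0.07 without aged lung 1 and −0.09 without aged lung 3. H2-Ob changed by 0.00019 in the lung, by −0.014 with median centring and by −0.16 with spike-in scaling.

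**Figure D3:**
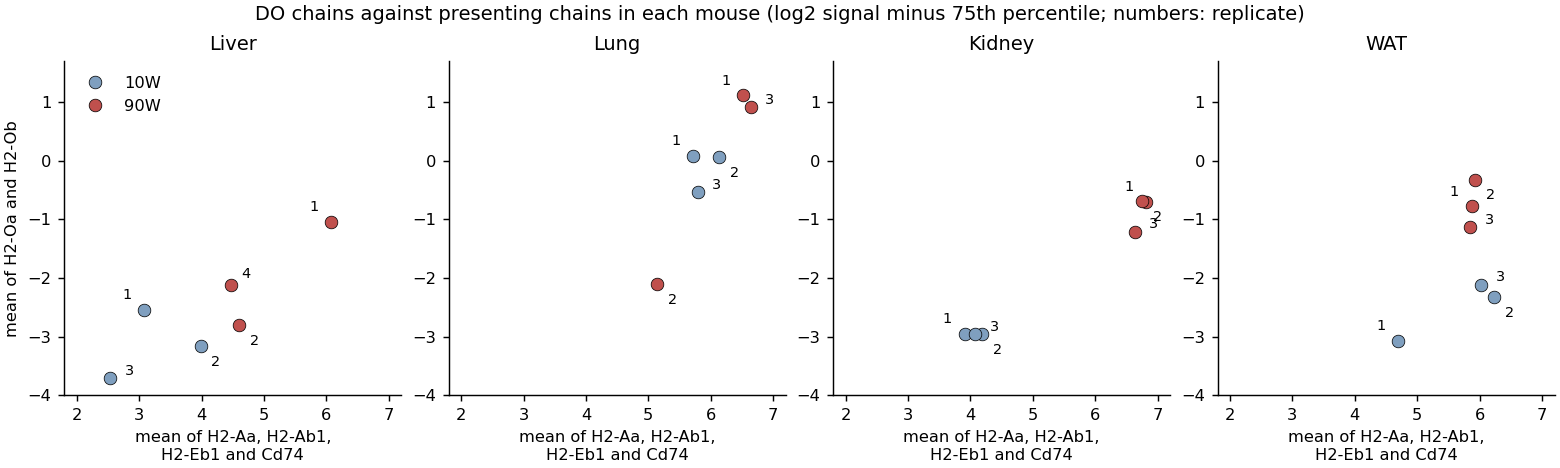
Mean of H2-Oa and H2-Ob (vertical axis) against the mean of H2-Aa, H2-Ab1, H2-Eb1 and Cd74 (horizontal axis) in each mouse, both as log2 signals minus the 75th percentile, with a panel for each tissue and the replicate number beside each point. In the kidney the aged mice lie higher on both axes, in WAT they lie higher on the DO axis, between −1.13 and −0.32 against −3.07 to −2.12, and aged lung 2 is lowest on both axes in its tissue.

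The plot of DO chains against presenting chains shows how the tissues differed in these means, each of them a description of fixed probes over arrays. In WAT, the mean of H2-Oa and H2-Ob was −3.07, −2.33 and −2.12 in young mice and −0.78, −0.32 and −1.13 in aged mice. In the same samples, the mean of the chains and Cd74 was 4.69, 6.23 and 6.02 in young mice and 5.87, 5.93 and 5.85 in aged mice. The aged fat samples were thus apart from the young for DO and inside their range for the chains. For the chains that range reaches below the aged samples only through young fat 1, and all aged samples lay below young fat 2 and 3. With each tissue's mean taken out, the 4 probes of H2-Aa, H2-Ab1, H2-Eb1 and Cd74 correlated at 0.982 or more with each other over the 24 arrays, and H2-Oa with H2-Ob at 0.959. H2-Oa or H2-Ob with those 4 gave 0.720 to 0.827. These points share slides within a tissue and the difference between ages, so they are no independent replicates.

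Cd74, the invariant chain that holds new class II dimers and later donates the fragment that DM removes, had the lowest adjusted p of the members in the kidney, 1.83e-05. It was at 3.93, 4.11 and 4.01 in young kidneys and at 6.92, 6.86 and 6.75 in aged kidneys. The ages were apart by far more than the spread within either, and the rise was 2.83 (SE 0.09, 7.10-fold). In the liver Cd74 was at 3.54, 4.30 and 3.07 in young mice and at 6.89, 5.05 and 4.95 in aged mice. Aged liver 1 stood well above the other aged livers, and the rise was 1.995 (SE 0.56, adjusted p = 0.0399). In the lung the change was 0.37 and in WAT 0.17, the latter −0.32 without young fat 1, and none was called.

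Ciita, the coactivator that class II promoters need, was called in the kidney and the liver. It was at −0.73, −0.23 and −0.58 in young kidneys and at 2.06, 2.0003 and 1.67 in aged kidneys. The groups were wide apart, and Ciita rose by 2.42 (SE 0.17, 5.36-fold, adjusted p = 0.000164). In the liver it was at −0.996, −0.59 and −1.56 in young mice and at 1.37, 0.14 and 0.31 in aged mice. All aged livers were above all young ones, a rise of 1.66 (SE 0.38, adjusted p = 0.0236). The probes of Ciita were not alike in the liver, since its dimmer probe gave 0.45 there, and 2.08 in the kidney. With the mean of the probes the liver change was 1.06 and no longer called (adjusted p = 0.0579). In the lung and WAT the changes of Ciita were 0.31 and 0.45, and the ages overlapped.

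The liver calls rested on single arrays more than the kidney calls did. Without young liver 1 the count fell from 6 to 1, without young liver 3 to 2 and without aged liver 1 to 3, and with the replicate number as a block or with the methods' test, adjusted over all genes here, it was 0, with 7 and 4 members at an unadjusted p under 0.05. The number of all liver genes called higher also fell, from 2928 to 1797, 2203 and 1855 without those arrays in that order. It was 1068 with the block and 1321 with the methods' test. With the block, the adjusted p of the 6 members lay between 0.0647 for H2-DMb1 and 0.138 for H2-Ab1. In the liver the ages share only the numbers 1 and 2, so that this block leaves young liver 3 and aged liver 4 unpaired. Cd74 also missed the threshold without young liver 2 (adjusted p = 0.0650) and H2-Ab1 without aged liver 2 (0.0642), and both did with no filter on dim probes (0.0508 and 0.0516), as did H2-Ab1 with the mean of the probes (0.0512). H2-DMb1 kept its call with any 1 array left out, and the median liver change then stayed between 1.33 and 2.02. In the kidney, each of the 149 comparisons of a member under another setting kept its direction and its call. The labels do not say whether 1 mouse gave several tissues.

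The order of the tissues was described for each member at each age. Among young mice, the mean of every member was highest in the lung and next in WAT, and the liver was lowest for all but H2-Ob and H2-DMb2, overlapping with the kidney for H2-Aa, H2-DMa, H2-Oa, Cd74 and Ciita. The means of H2-Ob in the liver and kidney, −2.87 and −2.97, differed by less than their spread, and H2-DMb2 was not well above background in young livers, so that it was not ranked against the kidney. Lung and WAT overlapped among young mice for the presenting chains, H2-DMa, H2-DMb1 and Cd74, and WAT and kidney for H2-DMb1, H2-Oa, H2-Ob and Ciita. Among aged mice, the kidney had the highest mean for the 3 presenting chains, the 3 DM chains and Cd74. Of these, only H2-Ab1 and H2-Eb1 had every aged kidney above every aged lung, and for H2-DMa and H2-DMb2 aged lungs 1 and 3 lay above every aged kidney, so that the lung mean was the lower through aged lung 2. For Cd74, aged lung 3 (7.03) lay above every aged kidney and aged lung 1 (6.89) above aged kidneys 2 and 3 (6.86 and 6.75). Aged lung 2 was at 5.82 for Cd74. For H2-Ab1 the aged means were 7.87 in the kidney (SD 0.03), 7.24 in the lung (SD 0.74), 7.09 in WAT (SD 0.07) and 6.04 in the liver (SD 0.72), and the lung and WAT did not differ beyond their spread. For H2-Oa, H2-Ob and Ciita the aged mean was highest in the lung, and for each the lung overlapped with the kidney. These levels compare 1 probe across slides and carry no test.

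Whether the change with age differed between tissues was tested in 1 fit of all 24 arrays, over 25773 genes with a probe that passed in every tissue, which left out H2-DMb2. The F test called 7 of 9 members, H2-Aa, H2-Ab1, H2-Eb1, H2-DMa, H2-DMb1, Cd74 and Ciita, beside 37.5% of all genes. H2-DMa had the lowest adjusted p, 0.000986, and H2-Oa (0.175) and H2-Ob (0.266) were not called. Against the lung, chosen as the reference since its macrophages and alveolar epithelium are known to express class II, the kidney change differed for the same 7 members, beside 23.3% of genes. The difference was 2.91 for H2-Aa (SE 0.77, adjusted p = 0.0110) and 2.46 for Cd74 (SE 0.64, adjusted p = 0.0102). The liver change differed from the lung's for 2 members, H2-DMa by 1.60 (SE 0.51, adjusted p = 0.0395) and H2-DMb1 by 1.62 (SE 0.45, adjusted p = 0.0184), beside 16.8% of genes. The WAT change differed from the lung's for 0 members by limma, 0 at an unadjusted p under 0.05 and 0 with the replicate number as a block, beside 3.24% of genes. Here H2-Oa gave a difference of 1.74 (SE 0.90, adjusted p = 0.335), so that its call in WAT and not in the lung was not shown to be a difference between them.

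These counts moved when all arrays that share an age and a replicate number were dropped together. The F test called 2 members without 10W replicate 3. The kidney differed from the lung for 1 member without 90W replicate 2, the number that includes aged lung 2. The liver differed from the lung for 1 member without 10W replicate 2, for 0 without 10W replicate 3, 90W replicate 1 or 90W replicate 2, and for 4 without 90W replicate 4. Without aged lung 2 and young fat 1, a pair picked after their values were seen, the counts were 7 for the F test, 7 for the kidney, 2 for the liver and 0 for WAT.

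**Figure D4:**
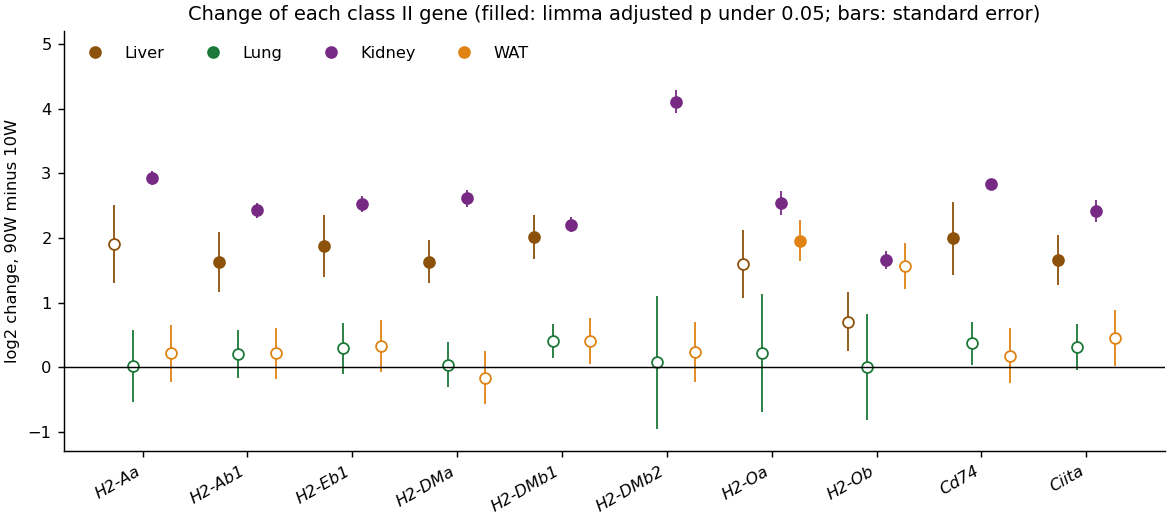
Change of each member from 10 to 90 weeks in each tissue, as the log2 difference of the group means with its standard error, with calls at an adjusted p under 0.05 marked apart. Kidney changes lie between 1.65 and 4.11 and lung changes between 0.00019 and 0.40, and H2-DMb2 in the liver has no tested value.

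The choice of scaling shifted all genes, members included. The median change over all genes went from −0.20 to −0.04 in the liver with spike-in scaling, from −0.23 to 0.12 in the kidney and from −0.08 to −0.24 for lung genes. With median centring it was −0.34 in the kidney. Of the calls, 38.1% were higher for the liver, 32.6% for the kidney and 48.5% for the lung, but 76.3%, 63.7% and 29.5% with spike-in scaling. With normexp the share was 28% in the liver. The members' median in the kidney was 2.85 with quantile normalization, 2.42 with median centring and 2.89 with spike-in scaling, so that it exceeded the all-gene median under each.

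The genes that control class II transcription were read from a list of 18, all of them tested in each tissue. In the kidney 11 rose and 3 fell, and among those that rose were Irf4 (4.29), a factor of lymphocytes and dendritic cells, Irf8 (1.82) and the cytokine Ifng, which was well above background in 1 of 3 young and 3 of 3 aged kidneys. Irf4 was well above background in 2 of 3 young kidneys. Spi1, which encodes PU.1, had no young kidney with a signal well above background, and aged kidneys were at least 7.28-fold higher. Such lower bounds set the mean of the brighter group against the mean of the dim arrays. There, a signal below the array's lowest signal that counts as above background was raised to that level. The 3 that fell were Nfyc (−0.63), Rfxank (−0.52) and Rfxap (−0.33), beside a median of −0.23 over all kidney genes that spike-in scaling moved to 0.12, and they were not refitted with that scaling. In the liver 6 rose and none fell, among them Spi1 (2.26), Irf8 (1.87) and Prdm1 (1.56), a repressor of Ciita, with Ifng at least 1.77-fold higher than in young livers, where it was not well above background. Spi1 and Prdm1 were each well above background in 2 of 3 young livers. Among the genes of the list that rose in the lung was Spi1 (1.13). In WAT 1 rose, Irf8 by 2.03, with 5 higher and 1 lower at an unadjusted p under 0.05, while limma called no member but H2-Oa.

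Peptide loading and turnover was read from 14 genes, tested in each tissue. In the kidney 2 rose and 7 fell, and Ctss, the cathepsin that trims the invariant chain, rose by 3.98 while Marchf8, a ligase that sends class II to degradation, fell by 0.74, Ctsh by 0.59 and Rab7 by 0.50. Over all kidney genes 42.6% were called lower, and these small falls, too, were not refitted with spike-in scaling. Ctss was at 2.24, 2.72 and 2.35 in young kidneys and at 6.65, 6.40 and 6.20 in aged kidneys, with no overlap. In the liver 4 rose, Cd63 (2.60), the thiol reductase gene Ifi30 (2.47), Ctss (2.18) and Lgmn (1.53). In the lung limma called 0 of 14, with 1 higher at an unadjusted p under 0.05. In WAT 2 rose, Ctss by 3.03 and Lgmn by 2.25, with 9 higher at an unadjusted p under 0.05. For Ctss the aged fat samples, at 8.02, 7.24 and 8.12, were all above the young, at 3.72, 5.52 and 5.05, whereas the ages overlapped in WAT for the presenting chains.

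Ligands and costimulators were read from 12 genes. In the kidney 9 of 10 tested rose, led by Cd86 (2.94), a costimulator on presenting cells, Icos (2.90) and Cd28 (2.42), while Pdcd1lg2 was at least 3.20-fold higher than in young kidneys, where it was not well above background, and 1 gene, Cd4, fell. Icos was well above background in 2 of 3 young kidneys. The Cd4 probe went from a mean of 2.39 in young kidneys to 1.89 in aged kidneys, where T cell genes were higher for 10 of 10. Its mean in young livers, 5.53, was far above that of young lungs, 2.07. What this probe measures was not tested, so its fall is not read as less Cd4 in T cells. In the liver 6 of 9 rose, with Cd86 (1.97), Cd274 (1.64), Cd80 (1.64) and Cd28 (1.27) ahead. In the lung 4 of 10 rose, which were Lag3 (2.42), a receptor of class II on T cells, Cd28 (1.97), Icos (1.42) and Cd80 (1.00). In WAT 2 of 10 rose, Cd28 by 2.60 and Pdcd1lg2, which was well above background in 1 of 3 young and 3 of 3 aged mice, with 6 higher at an unadjusted p under 0.05. Cd40lg was not above background in any group of these tissues.

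Lists of cell type markers were read beside the members, and their part in the members' results was not tested. Sums of a list are given on the unlogged scale, in multiples of the 75th percentile, and a sum mostly follows its brightest probe. In the kidney, where all members rose, the B cell list had 6 of 10 tested genes higher and 2 lower and summed to 1.87, 1.34 and 1.60 in young mice and 4.80, 4.70 and 3.37 in aged mice, with Cd79b brightest. The plasma cell list was higher for 6 of 6, with sums of 1.48, 1.39 and 1.35 against 84.7, 58.4 and 50.9 and Jchain brightest, and the 6 include Tnfrsf17, at least 4.19-fold higher than in young kidneys, where it was not well above background. The macrophage list was higher for 9 of 11, at 26.3, 28.6 and 29.9 against 165, 134 and 113, with Csf1r brightest and Clec4f not above background. Each of these lists was apart between the ages, as the members were.

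The dendritic cell list was higher for 8 of 9 in the kidney, led by Itgax (4.05), Clec9a (2.51), Flt3 (2.31) and Cd209a (2.10). Its sum, 106, 96.5 and 103 in young and 107, 99.7 and 113 in aged kidneys, followed the probe of Siglech, which stood between 6.01 and 7.19 on each array with a value, so that the sum says little about the list. Xcr1 was not above background in any group. T cell genes were higher for 10 of 10 and genes of all leukocytes for 5 of 5 in the kidney, with sums of 4.70, 4.63 and 4.51 against 54.5, 45.0 and 34.6 for the latter and Tyrobp brightest. Neutrophil genes were higher for 5 of 6 tested, among them Mmp9, not well above background in young kidneys and at least 5.17-fold higher in aged kidneys, and lymph node stroma genes for 4 of 6 with 1 lower, where Cxcl13, a chemokine for B cells, was at least 143-fold higher than in young kidneys, in which it was not well above background. Of the kidney's own 5 genes 4 fell, with sums of 1253, 1308 and 1504 against 554, 721 and 874.

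In the liver, macrophage genes were higher for 10 of 12, with sums of 105, 133 and 99.96 in young and 517, 412 and 403 in aged mice. B cell genes were higher for 1 of 10, Cd79b by 1.96, with sums of 3.80, 2.63 and 2.42 against 9.27, 3.38 and 6.43. Aged liver 2 was inside the young range for the B cell sum, and it was the aged liver that overlapped with the young for H2-Oa. For H2-Ob, aged liver 2 (−2.76) and aged liver 4 (−2.40) both lay below young liver 1 (−2.28). The B cell sum of aged liver 4, 6.43, was nevertheless above every young liver. Plasma cell genes were higher for 3 of 5, dendritic cell genes for 4 of 9 with Cd209a lower, T cell genes for 8 of 10, neutrophil genes for 2 of 7 and genes of all leukocytes for 5 of 5. Those 2 neutrophil genes, Ngp and Mmp9, were not well above background in young livers, and aged livers were at least 37.0-fold and 12.1-fold higher. In aged livers 1, 2 and 4, Ngp stood at −2.20, 5.89 and −2.02, and Mmp9 at 0.41, 0.25 and −3.59. The young means used for these bounds, with low signals raised as described above, were −4.65 for Ngp and −4.57 for Mmp9. The size of the Ngp bound thus rests on aged liver 2, and aged liver 4 was lowest for Mmp9. Of 6 lymph node stroma genes 2 rose, and Cxcl13 reached 7.29 in aged liver 1, the aged liver with the highest class II values, against 2.28 and 3.003 in the others. Of the liver's own 5 genes 1 fell, Ttr by 0.75.

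In the lung, where no member was called, limma called 0 of 11 B cell, 0 of 6 plasma cell, 0 of 9 dendritic cell and 0 of 12 macrophage genes, with 1, 1, 0 and 1 higher and 0, 1, 0 and 0 lower at an unadjusted p under 0.05, the macrophage gene being Clec4f, not well above background in young lungs. T cell genes were higher for 9 of 10 and genes of all leukocytes for 5 of 5. The B cell sums were 19.1, 16.5 and 9.93 in young lungs and 36.9, 4.28 and 29.3 in aged lungs, with Cd79b brightest. Aged lungs 1 and 3 were thus highest and aged lung 2 lowest, as for each member but H2-DMb1 and Ciita. Aged lung 2 was also lowest for the plasma cell sum (6.75), the macrophage sum (121) and the dendritic cell genes Flt3, Clec9a, Cd209a, Itgax, Ccr7, Batf3 and Fscn1. It was not lowest for the other tested genes of that list, Zbtb46 and Siglech. Siglech was highest there, at 6.43, and the dendritic cell sum of 92.8 was above every young lung. The sums of all leukocyte genes were 46.2, 49.7 and 53.7 in young lungs and 104, 127 and 123 in aged lungs, without a low value in aged lung 2. Neutrophil genes were higher for 1 of 7, Ngp, lymph node stroma genes for 0 of 6, with 1 lower at an unadjusted p under 0.05, and of 5 fat genes 1, Plin1, fell. Of the lung's own 5 genes limma called 0, and 0 at an unadjusted p under 0.05.

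In WAT, where H2-Oa was called, B cell genes were higher for 6 of 11, among them Ms4a1 (3.61), which encodes CD20, Cd79b (3.48) and Spib (3.15), with 10 at an unadjusted p under 0.05. The B cell sums were 1.84, 1.81 and 2.83 in young fat and 11.2, 15.0 and 8.93 in aged fat. They were highest in aged fat 2 and lowest among the aged in aged fat 3, which is the order of the DO chains there. The lymph node stroma sums, 43.0, 57.2 and 39.0 in aged fat, had that order too. The plasma cell sums, 40.4, 58.2 and 55.7, and the macrophage sums given below did not. This order of 3 samples was not tested. Plasma cell genes were higher for 4 of 6, T cell genes for 8 of 10 and macrophage genes for 3 of 11, which were Cd68 (3.72), Fcgr1 (3.34) and Adgre1 (3.18), with 10 at an unadjusted p under 0.05. The macrophage sums were 61.1, 195 and 154 in young fat and 747, 347 and 584 in aged fat. For dendritic cell genes limma called 0 of 9, with 2 higher and 1 lower at an unadjusted p under 0.05, and for genes of all leukocytes 0 of 5, with 5 higher at that level. Of lymph node stroma genes 1 of 6 rose, Cxcl13, and of neutrophil and fat genes limma called 0 of 6 and 0 of 5, with 1 and 0 at an unadjusted p under 0.05. These list counts were not refitted without single arrays.

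**Figure D5:**
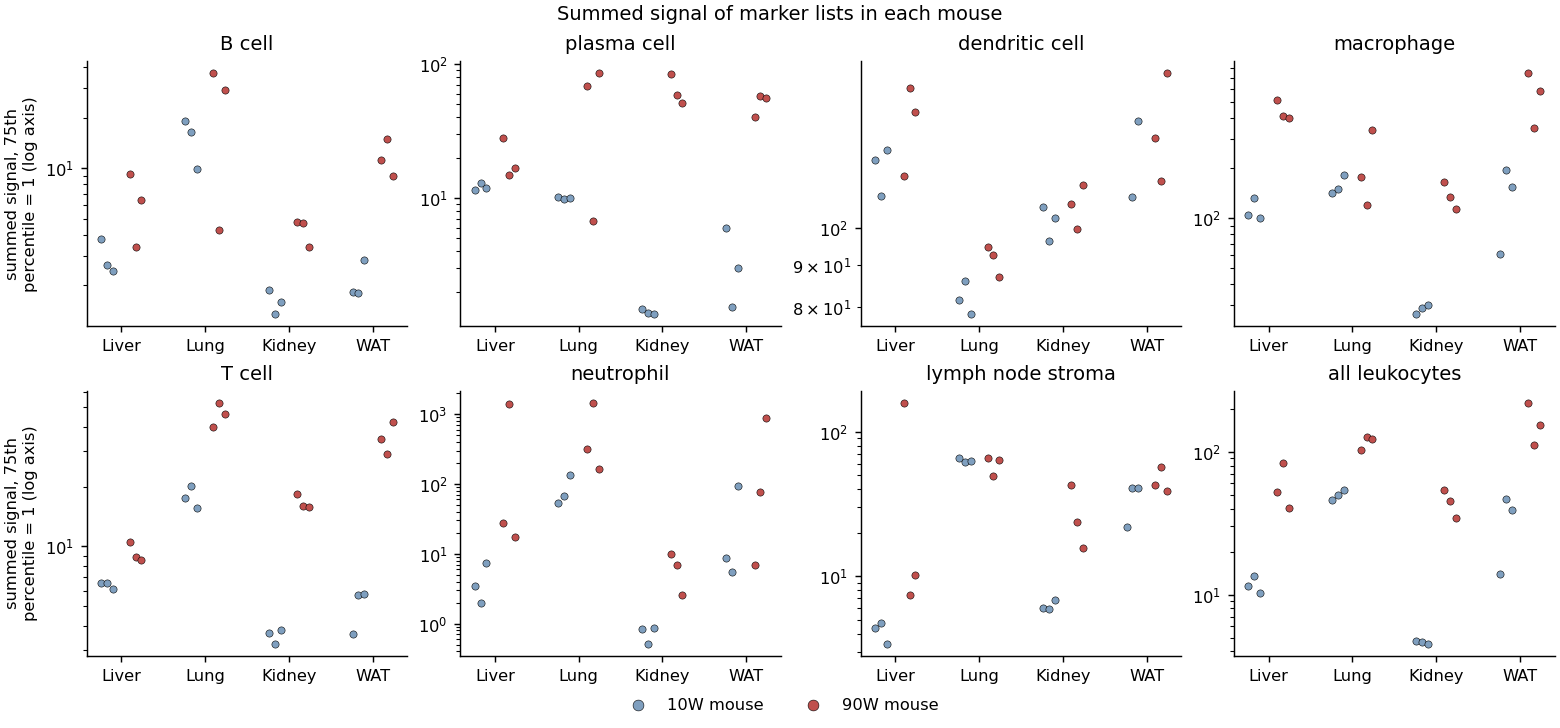
Summed level of each marker list in every mouse, in multiples of the array's 75th percentile on a log axis, with a panel for each list and points for young and aged mice of each tissue. The dendritic cell sum of WAT 10W 1 is left out, since its brightest probe has no value there. B cell sums in WAT lie between 8.93 and 15.0 in aged mice and between 1.81 and 2.83 in young mice, and in the lung aged replicate 2 is lowest at 4.28.

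Labelled tissues showed their own marker genes, as all 5 genes of each tissue's list passed the filter in that tissue, with Alb brightest in liver, Sftpc in lung, Kap in kidney and Fabp4 in WAT. Genes with a symbol were ranked, members left out, by how like their pattern was to the mean of H2-Aa, H2-Ab1, H2-Eb1 and Cd74. With each tissue's mean taken out, the first 10 were Wdfy1 (r = 0.960), Pld4 (0.941), Naaa (0.932), Loxl3 (0.925), Nlrp1b (0.924), Fgd2 (0.918), Sh2d1b1 (0.918), Sting1 (0.914), Tnfrsf23 (0.912) and Ryr1 (0.909) over 24 arrays. Wdfy1 changed by 2.34 in the kidney, 1.03 in the liver, 0.51 in the lung and 0.23 in WAT, which is the order of Cd74 as well. Members outside that mean gave 0.974 for H2-DMa, 0.968 for H2-DMb1, 0.967 for Ciita, 0.814 for H2-Oa and 0.755 for H2-Ob. The correlations are a description over arrays that share a slide within a tissue and the difference between ages, and carry no test.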

How the data were processed

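The deposited files hold intensity values that the authors read from the scans with Feature Extraction 11.0.1.1, which wrote a background-subtracted processed signal for each of 62976 spots, not scaled between arrays, with median signals, local backgrounds and calls of spots well above background, between 58.6% and 71.1% of probes on an array. The headers give a mouse design, whereas a human gene kit is named in the methods. Uneven or outlying spots were left out (1841 over all arrays), and none was saturated. Probe accessions were matched without versions to RefSeq symbols, for 58.3% of 56605 probes. The genes tested in each tissue outnumber the 22911 symbols, so that they include entries without a symbol. The log2 signal minus each array's 75th percentile was used. A probe was kept in a tissue where 3 or more of the 6 arrays had it well above background, and the brightest probe stood for a gene. Ages were compared by limma 3.58.1 in R 4.3.3, adjusting by Benjamini-Hochberg over all genes of a tissue and a threshold of 0.05, which leaves 3 mice against 3 as the limit of precision. The change between tissues was tested in 1 fit of all 24 arrays. The fit was tested on simulated data.

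Named genes are all 10 members, up to 4 called genes with the largest change from each list of class II transcription, loading, ligands and cell type markers, and the 10 genes most like the presenting chains. Other named genes, such as those a low count points to, were chosen after their values were seen. Members and lists were chosen with earlier results of these data known, and the epididymis and myeloid precursor lists and the pair of arrays left out together after the values were seen. Alternatives were normexp background correction of the median signal (offset 16), quantile normalization, median centring, spike-in scaling, no filter on dim probes, averaging a gene's probes, 1 fit of all arrays, the replicate number as a block, the methods' test (adjusted in the same way, which the methods do not name) and each array left out. The slide was not fitted as a block, since each tissue lies on 1 slide.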

Additional observations from a re-analysis of the deposited data

Results flagged for a closer look

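For 7 of the 9 members in the fit of all arrays, the change from 10 to 90 weeks differed between the 4 tissues by the F test, adjusted over all 25773 genes of that fit. The adjusted p was 0.000986 for H2-DMa, 0.00333 for H2-DMb1, 0.00708 for Cd74, 0.0105 for H2-Ab1, 0.0127 for H2-Eb1, 0.0136 for Ciita and 0.0139 for H2-Aa. The fitted changes of H2-DMa were 2.62 in the kidney, 1.64 in the liver, 0.04 in the lung and −0.16 in WAT. Each tissue lies on its own slide, so that the tissue and the slide cannot be told apart in these differences.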

How the results depend on the processing

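In the kidney, 10 members were called higher under each alternative run, except that the fit of all arrays holds 9, and their median of 2.53 moved to 2.85 with quantile normalization, 2.42 with median centring and 2.89 with spike-in scaling (2.44 to 2.62 with 1 array left out). With the replicate number as a block, the count of members called higher went from 6 to 0 in the liver and from 1 to 0 in WAT, and the methods' test gave 0 in both. Over all genes, the number called higher went from 2928 to 1068 and 1321 in the liver with these settings. In WAT it went from 605 to 323 and 1. With 1 array left out, the liver count ranged from 1 to 6, the lung count from 0 to 1 and the WAT count, 1 with all arrays, was 0 each time. The WAT count was also 0 with quantile normalization, spike-in scaling and no filter on dim probes. The count that differed between liver and lung was 1 with quantile normalization and with no filter, against 2. With a replicate number left out, it ranged from 0 to 4, the count by the F test from 2 to 7 and that between kidney and lung from 1 to 8.

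No value that turned its sign was called. Lung changes turned negative with median centring for H2-Aa (−0.00096) and H2-Ob (−0.014) and with spike-in scaling for H2-Aa (−0.15), H2-DMa (−0.12), H2-DMb2 (−0.088) and H2-Ob (−0.16). With 1 array left out, lung changes ranged from −0.34 to 0.67 for H2-Aa, −0.030 to 0.63 for H2-Ab1, −0.16 to 0.43 for H2-DMa, −0.61 to 1.30 for H2-DMb2, −0.37 to 1.32 for H2-Oa and −0.55 to 0.98 for H2-Ob. WAT changes ranged from −0.30 to 0.54 for H2-Aa, −0.23 to 0.51 for H2-Ab1, −0.13 to 0.61 for H2-Eb1, −0.62 to 0.14 for H2-DMa, −0.17 to 0.59 for H2-DMb2, −0.32 to 0.44 for Cd74 and −0.029 to 0.80 for Ciita. The cause was not tested.

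Across alternatives, 100 of 135 liver, 126 of 149 lung, 149 of 149 kidney and 130 of 149 WAT comparisons of single members kept direction and side of the threshold. The 3 mice per age limit the precision, and H2-DMb2 in liver and young kidney lies near the background. Replicate numbers were checked as pairs by the correlation of deviations from the group mean. Over 11 pairs of a young and an aged array of a tissue with 1 number the median was 0.00887 and 2 exceeded 0.1, and in 0 of 4 tissues did every array correlate best with its own number. Over 33 pairs of 2 tissues at 1 age the median was 0.0316 and 10 exceeded 0.1. Among the latter, all 3 pairs of aged kidney and WAT did (0.128, 0.161 and 0.171), and there each array correlated best with its own number. Both pairs of aged liver and lung also exceeded 0.1 (0.168 and 0.296), and there 3 of 4 arrays correlated best with their own number. This is a hint from the data and not from the labels. Whether 1 mouse gave several tissues is not labelled, and the fit of all arrays treats them as independent. With age and replicate number as a random block in that fit, the counts stayed at 7 for the F test, 2 for the liver, 7 for the kidney and 0 for WAT.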

Other observations

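Genes of one tissue were also read in the others. Of 5 liver genes, 4 fell in the kidney and 1, Ttr, fell in WAT, where it was at least 5.99-fold lower in aged mice and not well above background in them. Of 5 lung genes, 2 fell in the kidney, and of 5 kidney genes, 1 fell in the liver. Of 5 fat genes, 4 rose and 1 fell in the kidney, and 1 rose and 2 fell in the liver. Of the 8 epididymis genes, the filter passed 2 in WAT, 1 in the kidney, 1 in liver and 0 in lung, and 1, Crisp1, was called, at least 12.4-fold higher in aged kidneys than in young kidneys, where it was not well above background. Of the 6 myeloid precursor genes, 4 were tested in each tissue, and 2, Ctsg and Elane, were called lower in the kidney.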
